A study of Mus musculus with 8 samples.

Results

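Chromosome 18 was followed along its length in liver tumors of FAH-/- mice, in which 1 tumor had lost all of the chromosome but its proximal end and 1 had lost only its distal end. The members were all non-control probes that the array files place on chromosome 18 of the mouse build mm9, 5618 of the 170183 different probes on the autosomes and X. They ran from 3147004 to 90744509, a span of 87.60 Mb, with a median spacing of 11.39 kb and a largest gap of 175.3 kb.

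The series held 8 arrays, each with the DNA of 1 liver tumor from a separate male FAH-/- mouse. The missing protein, fumarylacetoacetate hydrolase, completes the breakdown of tyrosine, and mice without it survive on NTBC (nitisinone), which blocks the pathway upstream. The mice received NTBC in drinking water at 7.5 mg/L and then, for 6 to 12 months, at 2.5% of the normal dose. Tumor DNA carried the red dye Cy5, and every array had the same kind of reference in the green dye Cy3, pooled liver DNA of 6 male FAH+/+ littermates. No array had the dyes exchanged, and non-tumor FAH-/- liver was not analysed here, so what the tumors share with FAH-/- liver cannot be told apart from what is particular to tumors. The tumors are numbered 1 to 8 in the order of deposit. Tumors 1 to 4 were on 1 slide and tumors 5 to 8 on a 2nd.

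Array comparative genomic hybridization sets the amount of DNA at each probe in a tumor against that in a reference, so a lost stretch of chromosome appears as a run of neighbouring probes with lowered ratios. Chromosome 18 of the mouse carries genes of TGF-beta and BMP signalling, which restrain the growth of hepatocytes, together with regulators of Wnt signalling, cell adhesion genes and genes of liver metabolism. Losing a whole chromosome and losing the part beyond a break are distinct events: the first has no edge within the chromosome and the second has one.

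Each value below is a log2 ratio of tumor over reference, with 0 set at the commonest level of the autosomal segments of that tumor. On this scale the loss of 1 of 2 copies in every cell would give -1.0, and how many cells carry a loss cannot be told apart from how many copies they lost. The arrays shared a probe pattern, so that the same probes were high or low in most tumors. The spread between neighbouring probes was 0.62 to 0.65 in tumors 1 to 6 and 0.39 in tumors 7 and 8 with this pattern kept, and 0.12 to 0.21 with it removed. Levels are given with the pattern kept unless stated, and edges with it removed. On chromosome 18, between 97.91% and 99.93% of spots were well above background, and the median red signal was 4.26 to 6.54 times its background.

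The level of chromosome 18 as a whole differed between tumors more than it departed from 0. The mean over its probes was 0.0094 in tumor 1, 0.0083 in tumor 2, -0.27 in tumor 3, -0.064 in tumor 4, 0.0046 in tumor 5, -0.12 in tumor 6, -0.02 in tumor 7 and 0.087 in tumor 8. Tumor 3 was lowest by a wide margin, and 4 tumors were below 0 and 4 above. The mean over tumors was -0.0455 ± 0.11 (SD, n = 8), and the exact permutation test that flips signs, two-sided, gave p = 0.32, or 0.49 after Benjamini-Hochberg adjustment over 20 chromosomes; the smallest p this test can give is 0.00781. Chromosome 18 ranked 10 of 19 autosomes from the lowest by its mean. Without tumor 3 the mean was -0.0135, and with each array centred on its median in place of the commonest level it was 0.098, with 7 tumors above 0. With the median over probes in place of the mean it was -0.1414 and passed the test (exact sign-flip permutation, adjusted p = 0.0195); medians lay below means in all 160 pairs of a chromosome and a tumor. By slide the mean was -0.079 ± 0.13 (SD, n = 4) on the first slide and -0.0121 ± 0.085 (SD, n = 4) on the other.

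**Figure D1:**
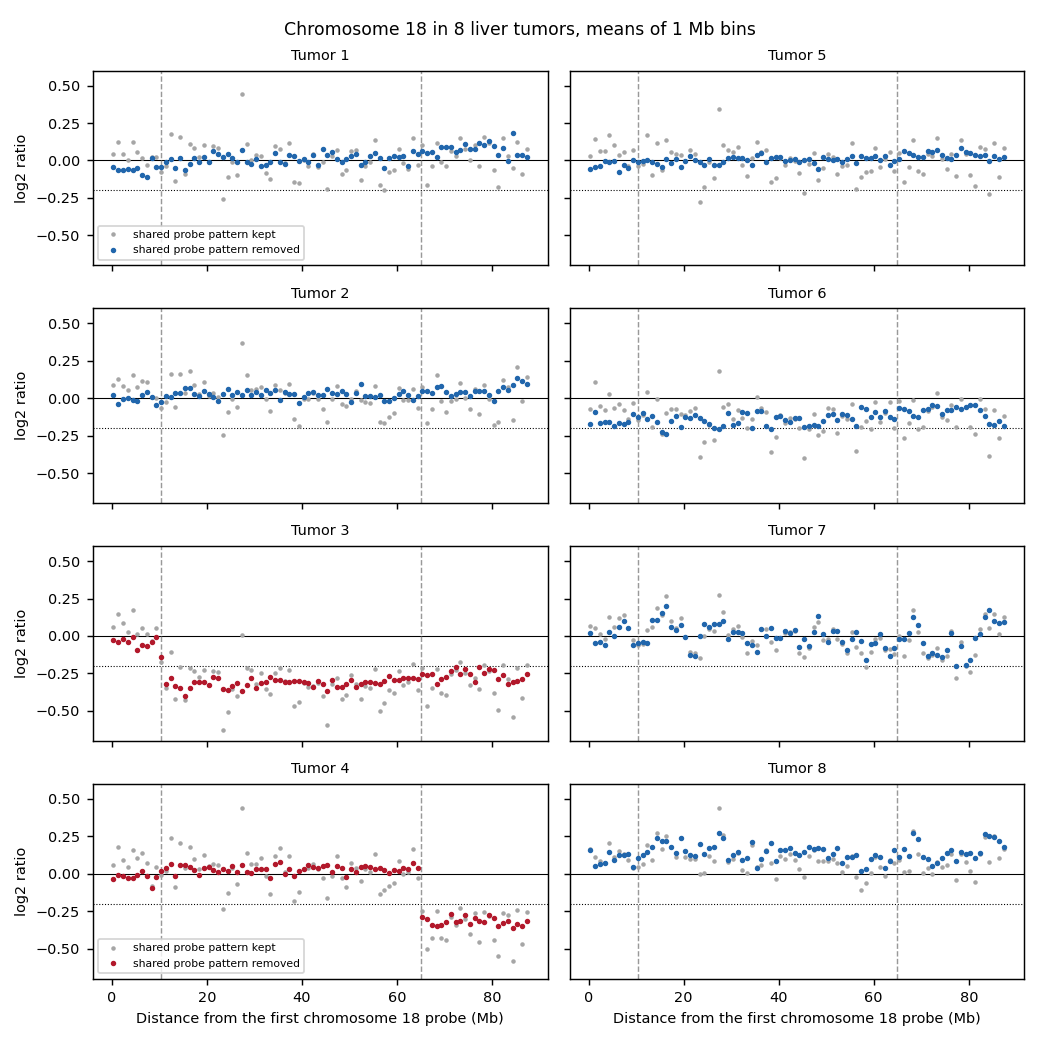
Log2 ratio (vertical axis) of chromosome 18 in 1 Mb bins against distance in Mb from its first probe, in each of 8 tumors; grey points keep the shared probe pattern, coloured points have it removed, dashed lines mark the edges found in tumors 3 and 4, and the dotted line is the loss threshold of -0.2. Tumor 3 drops after the first 10.37 Mb and stays low to the end, tumor 4 drops only over the last 22.60 Mb, and the other 6 tumors have no such step.

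Segmentation called a loss on chromosome 18 in tumors 3 and 4. A stretch was called lost where the mean of a segment was -0.2 or lower over at least 5 probes. In tumor 3 the segment chr18:13215337-90708824 (77.49 Mb, 4973 probes) had a mean of -0.31 ± 0.0094 (SE over probes). The segment before it, chr18:3147004-13198247 (10.05 Mb, 642 probes), had a mean of 0.068 and was not lost. In tumor 4 the segment chr18:68121322-90708824 (22.59 Mb, 1406 probes) had a mean of -0.37 ± 0.018 (SE over probes), after 64.96 Mb at 0.037. Each of tumors 1, 2, 5 and 6 formed a single segment over the whole chromosome. Tumor 7 split into 7 segments and tumor 8 into 6, none of them at -0.2 or lower.

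By length, the loss took 88.5% of chromosome 18 in tumor 3 and 25.8% in tumor 4, and 0.0% in each other tumor. Distal to 68 Mb it took 99.9% in tumor 3 and 99.4% in tumor 4. Proximal to 68 Mb it took 84.5% in tumor 3 and 0.0% in tumor 4. Tumor 3 thus met the rule for a whole loss, at least 80% of the length, but the proximal 10 Mb did not take part, so the loss had an edge and did not reach both ends. With array medians as 0, the call of a whole loss in tumor 3 was lost. A whole loss by that rule was called in 20 of 160 pairs of a chromosome and a tumor, or 12.5%, and 1 of those 20 was chromosome 18 in tumor 3. A loss from 68 Mb on without a whole loss was called in 1 tumor, tumor 4.

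Counted in bins of 1 Mb, 78 of the 88 bins of chromosome 18 were lost in tumor 3, where 30.5% of the 2538 bins of the autosomes and X were lost. In tumor 4, 23 of the 88 were lost, against 6.62% of all bins. The other 6 tumors had 0 lost bins on chromosome 18, although they lost bins elsewhere. Their share of all bins lost was 17.6% in tumor 1, 1.97% in tumor 2, 0.433% in tumor 5, 34.3% in tumor 6, 7.72% in tumor 7 and 23.6% in tumor 8. Tumors 1, 6 and 8 therefore combined many losses on other chromosomes with a chromosome 18 on which none was called.

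The losses of tumors 3 and 4 overlapped over the distal end. With the edges found below, both covered chr18:68140662-90744509, or 22.60 Mb. In bins, 10 of the 88 were lost in no tumor, 55 in tumor 3 alone and 23 in both. The shared bins were 29.5% of those lost in tumor 3 and all 23 of those lost in tumor 4, so the smaller loss lay wholly within the larger. Tumor 3 lost 78 of the 88 bins, so a loss confined to the distal end of another tumor had to lie within it. Over all 2538 bins, 30.5% were lost in tumor 3 and 6.62% in tumor 4. No bin was lost in more than 2 tumors. Within the shared stretch the mean was -0.31 in tumor 3 and -0.37 in tumor 4. The tumor cell content of the samples was not given in the sources used here, so these levels do not compare copies between tumors.

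The edge in tumor 4 could be placed to within a few probes once the shared pattern was removed. A single step fitted by least squares with the shared pattern removed lay between a probe ending at 68129746 and one starting at 68140662, a gap of 10.92 kb. Step positions from 68121381 to 68148771, a range of 27.39 kb, fitted nearly as well, within 3 log-likelihood units. The mean was 0.023 over the 4211 probes before the edge and -0.32 over the 1407 probes after it, a step of -0.34. Close to the edge, the last 10 probes before it had a mean of 0.021 ± 0.16 (SD over probes) and the first 10 after it -0.35 ± 0.11. Of the 50 probes on each side, 45 before it lay above the midpoint of both means and 45 after it below; with the pattern kept, where single probes spread more widely, these counts were 26 and 26. The change over those probes was -0.38 in tumor 4 and -0.026 to 0.075 in the other 7 tumors, so no other tumor had a step of that size there. With the pattern kept the best position was 68121322, with a range of 253.46 kb.

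The edge in tumor 3 lay at the other end of the chromosome. The fitted step fell between a probe ending at 13517594 and one starting at 13541522, a gap of 23.93 kb, with positions from 13517594 to 13587580 fitting nearly as well. The mean was -0.0355 over the 652 probes before it and -0.29 over the 4966 probes after it, a step of -0.26. The last 10 probes before the edge had a mean of -0.042 ± 0.11 (SD over probes) and the first 10 after it -0.26 ± 0.098. Of the 50 probes on each side, 42 before it lay above the midpoint and 43 after it below, and 24 and 30 with the pattern kept. The change over those probes was -0.24 in tumor 3 and -0.02 to 0.094 in the other 7. With the pattern kept the best position was 13215337 with a range of 889.80 kb, so this edge was placed less closely than the distal one.

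Segment ends close to the tumor 3 edge were also called in tumors 1, 2 and 4 with the pattern removed, at much smaller steps that ran upward. In tumor 1 the level went from -0.063 to 0.0076 at 13173851, in tumor 2 from -0.0068 to 0.0275 at 14565601 and in tumor 4 from -0.023 to 0.031 at 13517535. With the pattern kept these tumors had no segment end there. Near the tumor 4 edge, with the pattern removed, tumor 5 went up from 0.0085 to 0.0385 at 68953029. There tumor 7 went up from -0.147 to 0.0315 at 67726971. The removed pattern is a median over all 8 tumors, including tumor 3, and whether it carries part of the tumor 3 step into the others was not tested. With the pattern taken from the other 7 tumors, the edges of tumors 3 and 4 stayed at the same probes.

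**Figure D2:**
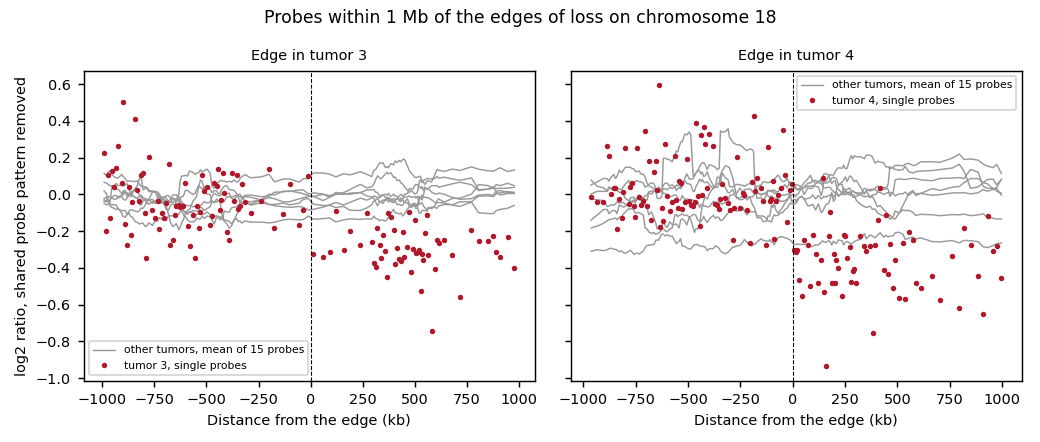
Log2 ratio with the shared probe pattern removed (vertical axis) of single probes in tumor 3 (left) and tumor 4 (right) against distance in kb from the edge of loss; grey lines are means of 15 probes in each of the other 7 tumors. The 50 probes on each side differ by -0.24 in tumor 3 and by -0.38 in tumor 4; the grey line that is low on both sides of the edge of tumor 4 is tumor 3, which has lost this stretch too.

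Cut at these edges, chromosome 18 had a proximal part of 10.37 Mb (652 probes), a middle part of 54.59 Mb (3559 probes) and a distal part of 22.60 Mb (1407 probes). In the proximal part the means of tumors 1 to 8 ran from -0.039 in tumor 6 to 0.11 in tumor 8, and tumors 3 and 4 were at 0.063 and 0.081. In the middle part tumor 3 was at -0.32 and the other 7 tumors between -0.13 and 0.087. In the distal part tumors 3 and 4 were at -0.31 and -0.37 and the other 6 between -0.13 and 0.077. Relative to the loss threshold, tumors 3 and 4 were thus alike in the proximal and distal parts and apart in the middle. The parts were cut at the edges of these same tumors, so this follows from the cut.

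The difference between parts within a tumor does not depend on where 0 is set. The proximal part minus the middle part was 0.38 in tumor 3 and 0.022 to 0.091 in the other 7 tumors (mean 0.059 ± 0.024, SD). The distal part minus the middle part was -0.39 in tumor 4 and -0.046 to 0.019 in the other 7 (mean -0.0066 ± 0.02, SD). With the pattern removed the same differences were 0.27 against -0.072 to 0.011, and -0.35 against -0.023 to 0.061. In both comparisons 1 tumor stood outside the range of the other 7. These are descriptions with no test, since the edges were taken from the same values.

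**Figure D3:**
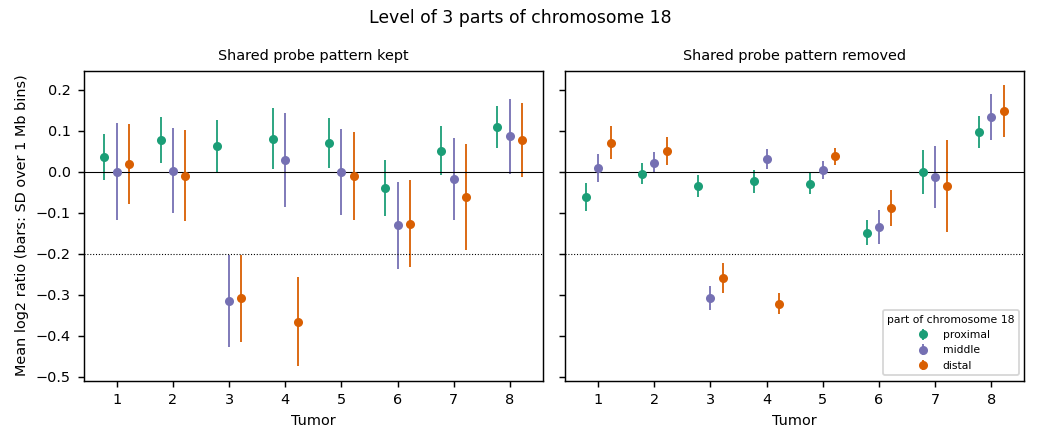
Mean log2 ratio (vertical axis) of the proximal, middle and distal parts of chromosome 18 in tumors 1 to 8, with the shared probe pattern kept (left) and removed (right); bars are the SD over the 1 Mb bins of a part. With the pattern kept, tumor 3 is at 0.063 in the proximal part and near -0.31 in the others, and tumor 4 is at -0.37 in the distal part only.

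Cut at 68 Mb, the distal minus the proximal mean was 0.0149 in tumor 1, -0.023 in tumor 2, -0.051 in tumor 3, -0.40 in tumor 4, -0.019 in tumor 5, -0.0096 in tumor 6, -0.057 in tumor 7 and -0.0138 in tumor 8. The mean over tumors, -0.07 ± 0.13 (SD, n = 8), rested on tumor 4: without it the mean was -0.023 ± 0.025 (SD, n = 7). With the pattern removed the mean was -0.0189 ± 0.13 (SD, n = 8) and tumor 4 was at -0.34. The difference then turned above 0 in tumors 2, 3, 5, 6 and 8, to between 0.0065 and 0.048, so only tumor 4 had a difference of more than 0.1 on both scales. Tumor 3 was low on both sides of 68 Mb. Each autosome was cut at the same fraction of its probed length, 74.0%, as a background. Of 152 pairs of an autosome and a tumor, 3 had a distal part lower by 0.2 or more, or 1.97%. Chromosome 18 in tumor 4 was the lowest of them, followed by chromosome 14 in tumor 3 at -0.24 and chromosome 4 in tumor 7 at -0.21. The cut was placed where chromosome 18 has its edge and not where the others might, so the order is a description.

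The signals of both dyes, taken apart, showed the steps in the tumor DNA. In tumor 4 the median red signal was 1032.1 in the middle part and 784.1 in the distal part, while the green signal of the reference was 979.5 and 984.0. On the log2 scale the red difference was -0.40 in tumor 4 and -0.038 to 0.024 in the other 7 tumors. The green difference was 0.0066 in tumor 4, within the -0.0103 to 0.024 of the others. In tumor 3 the median red signal was 1038.9 in the proximal part, 849.1 in the middle part and 846.5 in the distal part, and the green signal was 905.8, 992.1 and 1000.3. The red proximal part exceeded the middle part by 0.29 in tumor 3, against -0.1049 to 0.0104 in the others. The green proximal part was lower than the middle part in every tumor, by -0.13 in tumor 3 and between -0.16 and -0.091 in the others. Between the whole parts on either side of each tumor's own edge, the difference of its reference signal lay within the range of the other 7 arrays.

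**Figure D4:**
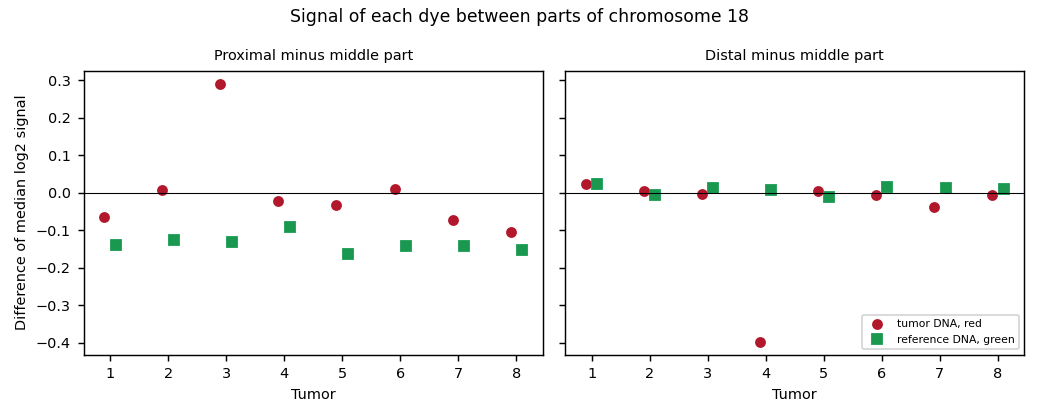
Difference of the median log2 signal between parts of chromosome 18 (vertical axis) for tumor DNA (red circles) and reference DNA (green squares) in tumors 1 to 8. Red stands apart at 0.29 for proximal minus middle in tumor 3 and at -0.40 for distal minus middle in tumor 4, and green lies with the other arrays in both.

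Each loss of chromosome 18 had about the depth of the other losses of at least 3 Mb called in the same tumor. Tumor 3 had 8 other lost segments of at least 3 Mb, on chromosomes 1, 3, 6, 7 and 14, with means from -0.34 to -0.30 and a median of -0.31, against -0.31 on chromosome 18. Tumor 4 had 5 others, on chromosomes 8, 9, 10 and 12, with means from -0.42 to -0.28 and a median of -0.38, against -0.37 on chromosome 18. By depth chromosome 18 was the 5th lowest of 9 in tumor 3 and the 4th lowest of 6 in tumor 4, inside the range of its own tumor in both. All these segments were picked at -0.2 or lower, so shallower changes were left out of the comparison. In tumor 4, chromosomes 3, 14 and 19, at means of -0.17, -0.196 and -0.17, held none of these segments.

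**Figure D5:**
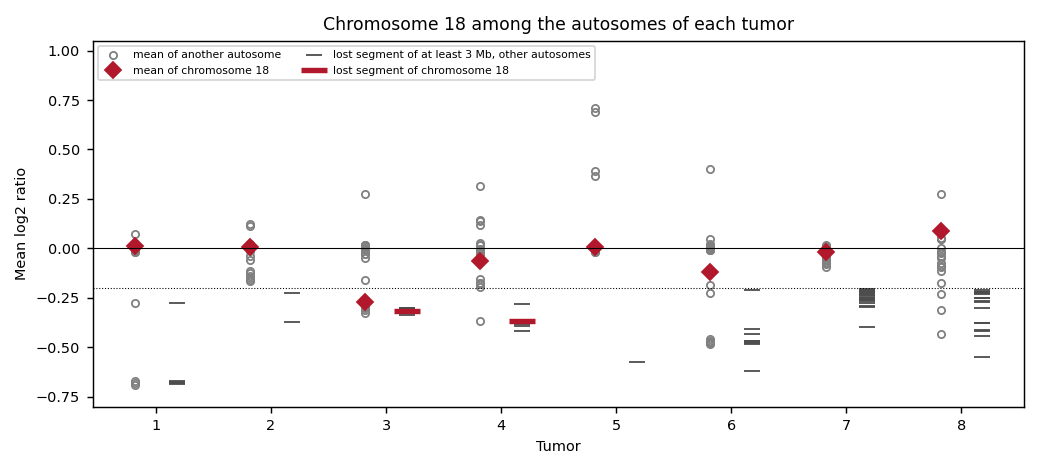
Mean log2 ratio (vertical axis) of chromosome 18 (red diamonds) and of each other autosome (open circles) in tumors 1 to 8, beside the lost segments of at least 3 Mb on chromosome 18 (red bars) and on other autosomes (grey bars). The red bars of tumors 3 and 4, at -0.31 and -0.37, lie among the grey bars of the same tumor.

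Tumor 6 was low over most of chromosome 18 without reaching the threshold. Its mean was -0.12 and its parts were at -0.039, -0.13 and -0.13 from proximal to distal with the pattern kept. With the pattern removed they were at -0.1486, -0.1343 and -0.0885, so the proximal part was then the lowest. Of its 88 bins, 82 were below 0 and 19 at -0.2 or lower with the pattern kept, and all 88 were below 0 and 5 at -0.2 or lower with it removed. Its 9 lost segments of at least 3 Mb on other autosomes had a median of -0.47 and ran from -0.62 to -0.21. The last was a segment of chromosome 4. The X of tumor 6, at a mean of -0.51, was not counted among these segments. These segments were picked at -0.2 or lower, so an uncalled chromosome 18 had to be shallower than each of them. With a threshold of -0.1 it counted as a whole loss, and with the threshold used here it was not called.

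Tumor 8 was the opposite. Its chromosome 18 was above 0, at 0.087, the 18th of 19 autosomes from the lowest, and 10 of its 88 bins were below 0 with the pattern kept and 0 with it removed. Segments at 0.2 or higher took 2.18% of the chromosome with the pattern kept and 15.15% with it removed. The larger of these with the pattern removed were chr18:16253737-20496134 at 0.22 and chr18:85590300-90744509 at 0.23. Neither rise was confined to tumor 8. On that scale tumor 7 was at 0.11 over chr18:15795771-21201058 and at 0.091 over chr18:84452443-90744509. Tumor 7 rose and fell along the chromosome between segment means of -0.13 and 0.33, and with the pattern removed it split into 21 segments.

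Shorter features recurred across tumors with the pattern kept. The stretch chr18:30025337-31425074 (72 probes) was a segment of its own in tumor 8 at 0.42. The same probes were at 0.34, 0.32, -0.048, 0.33, 0.29, 0.14 and 0.29 in tumors 1 to 7, above the chromosome 18 mean of every tumor. The stretch chr18:71366993-71872347 (54 probes), a segment of tumor 8 at 0.38, was at 0.20, 0.24, 0.24, 0.076 and 0.26 in tumors 1, 2, 5, 6 and 7 and at -0.15 in both tumors 3 and 4, where the distal part was at -0.31 and -0.37. The last 3 probes, chr18:90721234-90744509, were at 1.44 in tumor 3 and 1.26 in tumor 4, the only short segments that differed from the chromosome 18 mean of their tumor by 0.5 or more. They were at 1.46, 1.38, 1.38 and 1.23 in tumors 1, 2, 5 and 6 and at 0.50 and 0.47 in tumors 7 and 8. With the pattern removed they lay between -0.29 and 0.032 in all 8, so the height was shared by the arrays.

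No 1 Mb bin of chromosome 18 passed the test for a shift across the 8 tumors. A limma fit over all 2538 bins, testing for a shift beyond 0.1 with Benjamini-Hochberg adjustment, called 0 of the 88 bins in either direction at an adjusted p under 0.05, and 8 lower and 1 higher at an unadjusted p under 0.05. Over all bins it called 0.0788% lower and 0.0394% higher with adjustment, and 9.61% lower and 3.62% higher without it, so the 8 lower bins of 88 were near the background. The lowest p was that of the bin from 30000001 to 31000000 (34 probes), at 0.31 ± 0.15 (SD, n = 8) and above 0 in 8 of 8 tumors, with a limma adjusted p of 0.0991. The lowest bin was that from 26000001 to 27000000 (30 probes), at -0.27 ± 0.18 (SD, n = 8) and below 0 in 8 of 8, with a limma adjusted p of 0.17. Of those 8, 4 were among the 23 bins from 68 Mb on and 4 among the other 65. With the pattern removed limma called 0 of the 88 in either direction without adjustment, where it called 103 lower and 84 higher of all 2538 bins. The removed pattern is a median over these same tumors, so shifts along the chromosome that they share went with it. This 0 therefore says nothing on such shifts. With array medians as 0, limma called 5 bins of chromosome 18 higher at an adjusted p under 0.05, where it called 252 of all 2538 bins higher. Without tumor 3 it called 1 bin of chromosome 18 higher, and 2 over all bins.

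Bin profiles of different tumors were more alike with the shared pattern kept. Over 88 bins, the correlation between 2 tumors was 0.37 to 0.94 over 28 pairs with the pattern kept, with a median of 0.68. With it removed it was -0.63 to 0.68 with a median of -0.20. The pattern is a median over these same tumors, so the lower correlations follow at least in part from the subtraction itself. All arrays share the probes and the reference, so these values are a description.

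The RefSeq annotation of GRCm38.p6 places 510 protein-coding genes on mouse chromosome 18. Of these, 39 made up 6 lists of liver and tumor genes. The lists held genes of this chromosome only, so that all 39 lie on it is no result. Gene positions on mm9 were not used here, so no gene was placed on either side of an edge, and the genes are given by their order from the proximal end. Among the 4 genes of SMAD signalling, Bambi, a decoy receptor of the TGF-beta family, came first of all 39, and Smad4, the partner shared by the receptor-regulated SMADs, was the 33rd. Smad7, an inhibitor of the pathway, and Smad2, which TGF-beta receptors activate, followed as the 35th and the 36th. Of the 6 genes of the list named Wnt and adhesion, Cdh2 (N-cadherin) and Apc, part of the complex that degrades beta-catenin, were the 8th and the 10th. Ctnna1 (alpha-catenin) and Mcc were the 14th and the 18th, and Dcc, a netrin receptor, the 32nd. The list also holds Tcf4, the 29th, a basic helix-loop-helix factor that is not the Wnt effector Tcf7l2. Of the 10 genes of liver metabolism, Npc1, which exports cholesterol from lysosomes, and Ttr, the transport protein transthyretin, were the 7th and the 9th. Fech, the last enzyme of haem synthesis, and Atp8b1, a lipid flippase of the bile canaliculus, were the 25th and the 26th, and Cndp2, a dipeptidase, was the last of the 39.

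The remaining lists also spread along the chromosome. Of the 6 transcription factors, Zeb1 and Gata6 were the 3rd and the 5th, Egr1 and the glucocorticoid receptor gene Nr3c1 the 12th and the 17th, and Setbp1 and Nfatc1 the 37th and the 38th. Of the 5 genes of growth factor signalling, Map3k8 was the 2nd, Spry4 and Fgf1 the 15th and the 16th, and the receptor genes Pdgfrb and Csf1r the 21st and the 22nd. Of the 8 genes of cell cycle, repair, death and methyl-DNA binding, Rock1 was the 4th, Rbbp8, which acts in resection of DNA ends, the 6th, and Cdc25c, a phosphatase that starts mitosis, the 11th. Malt1 and Pmaip1 were the 27th and the 28th, Poli and Mbd2 the 30th and the 31st, and Mbd1 the 34th. The array measured DNA, and the expression of these genes was not measured here.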

How the data were processed

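DNA of 8 tumors, 1 group, was measured on 2-colour Agilent arrays (red tumor, green reference pool, 1.5 µg of DNA each). Red and green intensity values were deposited as Feature Extraction 10.7.3.1 processed signals, background-corrected, detrended and dye-normalized by a linear method per the file headers, on mm9. Spot marks (well above background, outlier, saturated) are deposited as coded flags, a unit of no scale, per the file headers. A log10 ratio per spot and the series' rounded log ratios were also deposited by the authors; the rounded table differed from the log ratios used here by at most 0.00498 and served as an alternative.

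Control spots and spots marked as outliers were left out, log2 of red over green was taken, spots of a probe (1 or 5) were averaged, and each array was segmented by recursive circular binary segmentation and centred on its commonest autosomal segment level, without loess. The shared probe pattern is the median over tumors of each probe's deviation from its chromosome median, scaled to each array. Lost means a segment mean of -0.2 or lower over at least 5 probes. Tests were the exact sign-flip permutation test and limma 3.58.1 (treat, 0.1), in R 4.3.3; the rest ran in Python 3.11.15 with numpy 2.4.6 and numba 0.67.0. The scripts were tested on simulated data. The depth of an array has no count; 8 tumors limit the precision.

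Regions were named if of at least 3 Mb and 0.2 in size, or shorter (up to 10 per direction) and 0.5 or more from the chromosome 18 mean of their tumor; genes were named from 6 lists. The members, boundary and lists were chosen with earlier results of these data known. Normexp background correction used the median spot signals with an offset of 50. Alternatives were array medians as 0, the pattern removed, normexp, outlier marks ignored, probes well above background only, other thresholds, boundaries and summaries, slides, and each tumor left out; those with the pattern of the other 7 tumors, the deposited table, the tumor 3 edge, and the distal difference without tumors 7 and 8 were chosen after seeing the data.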

Additional observations from a re-analysis of the deposited data

Results flagged for a closer look

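On chromosome 18, 1 tumor of 8 stood apart from the rest in 3 differences, each by a gap to the next tumor that took a large share of the range of all 8. The rule that picked them out passes about 1 in 20 groups by chance, a rate that does not apply here, since the parts were cut at edges found in these same tumors; the gaps are descriptions. The distal minus the proximal mean at 68 Mb was -0.3985 in tumor 4, with the next lowest tumor at -0.0569; with the shared probe pattern removed it was -0.3409, with the next at -0.0259. The distal minus the middle part was -0.3947 in tumor 4, with the next at -0.0459; with the pattern removed it was -0.3525, with the next at -0.0231. The proximal minus the middle part was 0.3785 in tumor 3, with the next highest at 0.0914; with the pattern removed it was 0.2723, with the next at 0.0112.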

How the results depend on the processing

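The mean of chromosome 18 over tumors turned from -0.0455 to 0.0982 with array medians as 0 (sign-flip p = 0.03, adjusted 0.0781, exact permutation). With medians over probes it was -0.1414 and passed the test (exact sign-flip permutation adjusted p = 0.0195); the median lay below the mean in all 160 pairs of a chromosome and a tumor, by a median of -0.11. It kept its direction and its side of the threshold under the other 17 alternatives, and ran from -0.0644 to -0.0135 with each tumor left out in turn. The count of whole losses, 1, became 0 with array medians and 2, tumors 3 and 6, with a threshold of -0.1. The count of distal losses, 1, was the same under all 9 alternatives run. The distal minus proximal mean ran from -0.0817 to -0.0226 with each tumor left out. With the pattern kept, the edge moved to 68121322 in tumor 4 and to 13215337 in tumor 3, and it stayed at the same probe under 3 other settings each. Limma called 0 bins of chromosome 18 lower under every alternative, though removing the pattern also removes shifts along a chromosome that the tumors share. It called 5 higher with array medians, where 252 of all 2538 bins were called higher. Without tumor 3 it called 1 higher, against 2 over all bins, and under the rest it called 0 higher. No paired analysis was possible because the tumors form 1 group. Signal over background was lowest in the red of tumor 7, at 4.26, and in the green of tumor 4, at 4.31.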

Other observations

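A run of 3 neighbouring probes, chr18:51328192-51352932, was a segment of its own in tumor 5 with the shared pattern removed, at -0.4462, and was chosen after its values were seen. In tumors 1 to 8 its mean was 0.30, 0.37, -0.49, -0.026, -0.45, -0.37, 0.14 and 0.26, whereas the 10 probes before it were at 0.024, 0.029, -0.35, 0.05, 0.0067, -0.17, 0.085 and 0.11. Tumors 3, 5 and 6 were low and tumors 1, 2 and 8 high, though in tumor 3 the 10 probes before were already at -0.35. The run lay within the loss of tumor 3 and outside that of tumor 4, so this division cannot be set against both losses. The first of its probes had the widest range, from -0.62 in tumor 3 to 0.74 in tumor 1. Only 3 probes carry it, and no test was made. The stretch chr18:36742412-36818131 (10 probes) was likewise a segment of tumor 7 at 0.36 with the pattern removed, where tumor 8 was at 0.26 and tumors 1 to 6 between -0.31 and 0.093. In tumor 7, chr18:25597610-25895578 (30 probes) was at -0.32 on that scale, the only segment of at least 5 probes on chromosome 18 outside tumors 3 and 4 that met the threshold for loss, and 0.3% of the chromosome; tumor 8 was at 0.052 there and tumor 1 at 0.12.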
